A study of Mus musculus with 16 samples.

Results

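Tumour necrosis factor (TNF) changed the messenger RNA of a broad set of genes in mouse bone marrow-derived monocytes that were also given the compound PFM037. The comparison set 4 libraries with PFM037 and TNF (PFM037+TNF) against 4 libraries with PFM037 alone, 8 of the 16 libraries of the study, and it was read across all genes. The libraries were chosen by their labels and matched by animal, because each of 4 wild-type individuals gave 1 library to each group. Of 13856 genes tested, 2828 (20.4%) passed the test, of which 1475 (10.6%) rose with TNF and 1353 (9.76%) fell. At least 2-fold changes were seen in 284 (2.05%) that rose and 101 (0.729%) that fell. The genes that rose most included Gpr84, a medium-chain fatty acid receptor, Acod1, the enzyme that makes itaconate, and Ptges, a prostaglandin E synthase. The genes that fell most included Hpgd, which degrades prostaglandins, Gas6, a bridge between dying cells and phagocytes, Apoe, a lipid carrier, and Pparg, a lipid-sensing nuclear receptor.

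All 4 groups of the study received macrophage colony-stimulating factor (M-CSF), which drives monocytes towards macrophages, for 24 h, with vehicle, PFM037, TNF, or PFM037 and TNF added. The labels give PFM037 by that code name only, and they state neither its target and dose nor the dose of TNF, nor the strain, age and sex of the animals. Every library came from 1 individual, called an animal here, and the 8 libraries held 11142804 to 18845228 counts. Levels are CPM, counts divided by the TMM-scaled library total, changes are log2 ratios of PFM037+TNF to PFM037 from edgeR's quasi-likelihood test with the animal as a term, and a gene is said to have risen or fallen where its Benjamini-Hochberg adjusted p over all genes tested was below 0.05. A ± after a level in CPM is the standard deviation (SD) over 4 animals. A ± after a log2 change is the standard error (SE) of the fit. Without the animal term the same test called 213 genes higher and 99 lower. With library size alone as the scaling it called 1057 higher and 2275 lower, and the median over all genes moved from -0.01 to -0.08.

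TNF binds 2 receptors, TNFR1 (Tnfrsf1a) and TNFR2 (Tnfrsf1b). Receptor-bound adaptors and ubiquitin ligases switch on the kinases that destroy the IκB inhibitors, and freed NF-κB dimers then enter the nucleus. Their targets include cytokines and chemokines, survival genes, and the inhibitors that bring the pathway back down. In macrophages TNF is also known to alter lipid handling, the uptake of dying cells and division.

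The NF-κB feedback inhibitors and the CXC chemokines are textbook NF-κB targets, so the 250 bases before the transcription start were read for the rising genes named here. The windows printed here, from RefSeq on GRCm38.p6, belong to the 6 named genes with a match that rose most: the inhibitors Tnfaip3, Nfkbia and Nfkbie, the chemokines Cxcl1 and Cxcl2, and Marco. They lie for Marco at chr1:120505025-120505274 (- strand), Tnfaip3 at chr10:19015411-19015660 (- strand), Nfkbia at chr12:55492648-55492897 (- strand), Nfkbie at chr17:45555450-45555699 (+ strand), Cxcl1 at chr5:90890995-90891244 (+ strand) and Cxcl2 at chr5:90903649-90903898 (+ strand). The windows end at RefSeq starts, which differ from the GENCODE starts behind the gene coordinates given here: 247 bases of the Tnfaip3 window, 28 of the Cxcl2 window and 4 of the Cxcl1 window lie inside the GENCODE gene. Each is printed 5′ to 3′ on the gene's strand, and capitals mark every match to the κB letters GGG, any 3 bases and TTCC in a row, on either strand, with overlapping matches run together.
Marco: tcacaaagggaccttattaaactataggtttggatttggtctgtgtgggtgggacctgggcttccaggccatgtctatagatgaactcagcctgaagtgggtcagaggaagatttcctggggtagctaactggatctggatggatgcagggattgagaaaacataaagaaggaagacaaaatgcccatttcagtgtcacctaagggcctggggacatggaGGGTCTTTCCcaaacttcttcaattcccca
Tnfaip3: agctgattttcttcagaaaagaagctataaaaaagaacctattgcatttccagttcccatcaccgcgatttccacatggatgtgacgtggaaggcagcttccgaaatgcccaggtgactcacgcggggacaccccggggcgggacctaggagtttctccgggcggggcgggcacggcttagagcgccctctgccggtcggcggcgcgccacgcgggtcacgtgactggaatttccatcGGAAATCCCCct
Nfkbia: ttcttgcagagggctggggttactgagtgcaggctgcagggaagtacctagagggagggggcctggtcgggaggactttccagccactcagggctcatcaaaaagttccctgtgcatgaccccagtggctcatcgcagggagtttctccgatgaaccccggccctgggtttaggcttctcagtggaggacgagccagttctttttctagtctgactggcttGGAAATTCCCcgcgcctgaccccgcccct
Nfkbie: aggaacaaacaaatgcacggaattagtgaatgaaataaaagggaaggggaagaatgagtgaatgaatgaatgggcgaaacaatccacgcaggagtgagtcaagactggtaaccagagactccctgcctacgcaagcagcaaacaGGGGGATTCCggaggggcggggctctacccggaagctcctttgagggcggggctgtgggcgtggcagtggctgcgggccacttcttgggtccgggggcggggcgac
Cxcl1: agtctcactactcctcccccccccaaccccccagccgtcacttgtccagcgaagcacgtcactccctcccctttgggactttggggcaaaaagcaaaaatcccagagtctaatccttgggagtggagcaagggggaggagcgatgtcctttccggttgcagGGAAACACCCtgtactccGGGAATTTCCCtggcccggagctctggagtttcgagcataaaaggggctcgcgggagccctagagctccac
Cxcl2: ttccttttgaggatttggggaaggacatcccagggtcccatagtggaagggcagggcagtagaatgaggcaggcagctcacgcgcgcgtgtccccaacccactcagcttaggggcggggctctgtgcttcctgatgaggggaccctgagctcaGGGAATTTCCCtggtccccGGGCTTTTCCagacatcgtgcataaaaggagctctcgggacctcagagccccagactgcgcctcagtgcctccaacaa

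The motif stood in 5 of 10 NF-κB feedback inhibitor windows and in 4 of 8 CXC chemokine windows. It stood in 8.30% of 1108 windows of genes that rose, in 9.42% of 191 windows of genes that rose by at least 2-fold and in 3.72% of 1022 windows of genes that fell. Over all 9564 tested genes with a window the share was 5.24%, and over all 27025 windows it was 4.60%. Among the named genes that rose, 12 of 79 with a window held a match. A match describes the letters only.

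The gene with the largest rise among those named by rule was Gpr84 (chromosome 15, 103308235 to 103310612, - strand, GENCODE M21 on GRCm38). Its level in animals 1 to 4 was 10.5, 10.8, 10.9 and 11.7 CPM with PFM037 and 108, 108, 78.8 and 65.3 CPM with PFM037+TNF. The groups did not overlap, and the change was 8.05-fold (log2 change 3.01, SE 0.21, adjusted p = 1.06e-07). Acod1 (chromosome 14, 103046977 to 103056573, + strand) was at 48.9, 24.995, 228 and 178 CPM with PFM037 and at 515, 437, 859.9 and 787 CPM with both agents. Animals 1 and 2 started far below animals 3 and 4 and rose further on the log2 scale, and the change was 7.29-fold (log2 change 2.87, SE 0.36, adjusted p = 3.93e-05). Without the animal term Acod1 was not called, with adjusted p = 0.105. Ptges (chromosome 2, 30889471 to 30929863, - strand) stood at 6.31, 5.52, 5.08 and 7.04 CPM with PFM037 and at 35.2, 44.0, 27.967 and 34.6 CPM with PFM037+TNF. Its groups were far apart, with a change of 5.85-fold (log2 change 2.55, SE 0.17, adjusted p = 8.17e-08).

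The other genes among the 12 highest rose 4.86- to 6.22-fold. They were Apol7c, an apolipoprotein L gene, Traf1, an adaptor of TNF receptors, Ly6i, a GPI-anchored surface protein, Pde4b, a phosphodiesterase that degrades cyclic AMP, Fpr1, a receptor for bacterial formyl peptides, Mmp14, a membrane-bound metalloproteinase, Slamf8, a SLAM family receptor, Marco, a scavenger receptor for bacteria, and Tnfaip3, which encodes A20, a ubiquitin-editing brake on NF-κB. Each of these 9 was higher in 4 of 4 animals, which the naming rule required of every gene taken for its fold change. Fpr1 rose from 57.1 ± 27.6 to 267 ± 43.3 CPM (mean ± SD, n = 4) and Marco from 4.74 ± 1.70 to 24.4 ± 12.8 CPM. Ly6i has close relatives in the Ly6 cluster, so its reads may be shared with them.

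**Figure D1:**
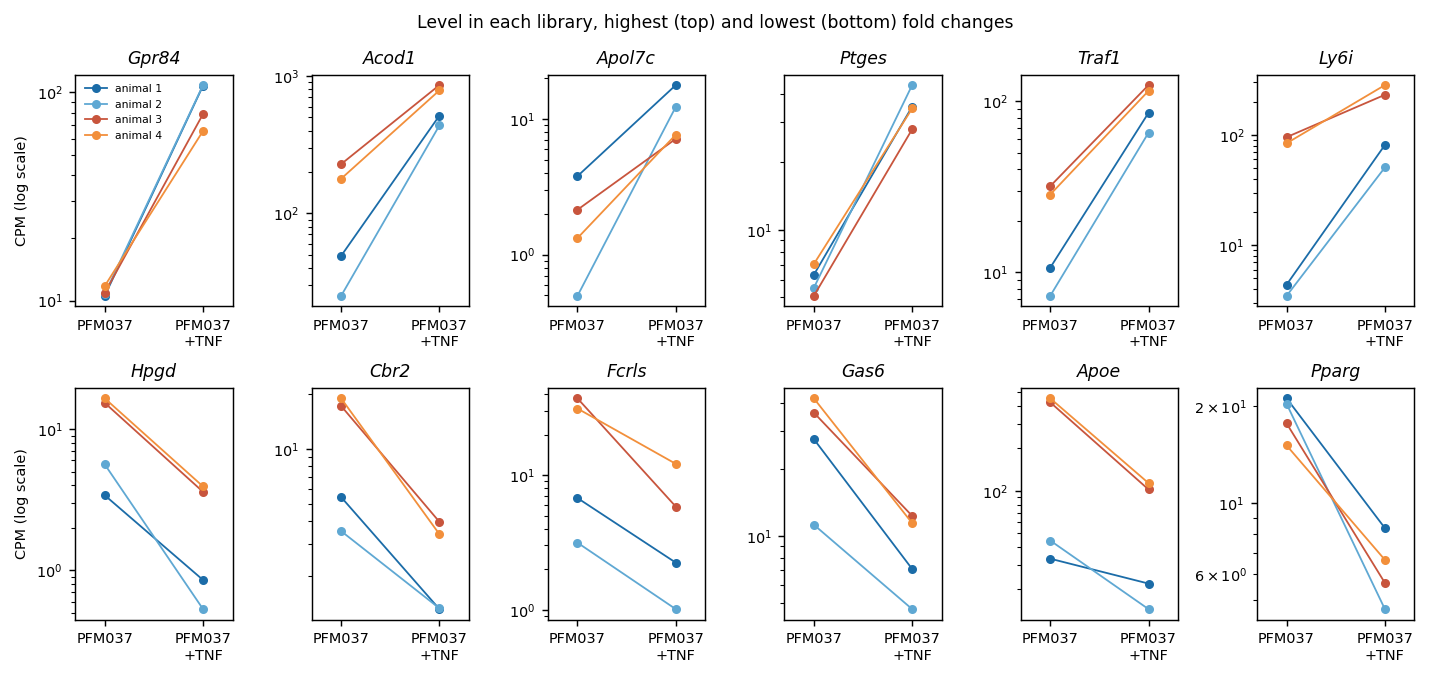
Level of the 6 genes with the highest and the 6 with the lowest fold change by the naming rule, in CPM on a log axis whose range differs between panels. Each line joins the PFM037 and the PFM037+TNF library of 1 animal. All 24 lines of the top row rise and all 24 of the bottom row fall, as the naming rule required. In Acod1, Traf1 and Ly6i animals 1 and 2 start lower than animals 3 and 4.

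Hpgd (chromosome 8, 56294585 to 56321043, + strand), the enzyme that inactivates prostaglandins, fell furthest among the genes named for fold change, which have a mean of at least 5 CPM. It was at 3.40, 5.63, 15.3 and 16.5 CPM in animals 1 to 4 with PFM037 and at 0.855, 0.532, 3.60 and 3.93 CPM with PFM037+TNF, a change to 0.205 times its level (log2 change -2.28, SE 0.19, adjusted p = 1.08e-06). The level fell in each animal, although that of animal 1 with PFM037 lay within the range of the PFM037+TNF group. Gas6 (chromosome 8, 13465374 to 13494490, - strand) stood at 27.4, 11.3, 36.1 and 41.9 CPM with PFM037 and at 7.10, 4.68, 12.3 and 11.4 CPM with both (log2 change -1.67, SE 0.20, adjusted p = 2.46e-05). In this gene too the animal with the lowest PFM037 level, animal 2, lay within the range of the other group. Apoe (chromosome 7, 19696109 to 19699188, - strand) was at 33.1, 44.5, 425 and 453 CPM and fell to 22.0, 14.5, 102 and 114 CPM (log2 change -1.60, SE 0.17, adjusted p = 7.95e-06). Apoe levels were several times higher in animals 3 and 4 in both groups, and all 4 animals fell. Pparg (chromosome 6, 115360951 to 115490399, + strand) was at 21.1, 20.3, 17.7 and 15.1 CPM with PFM037 and at 8.35, 4.68, 5.64 and 6.65 CPM with PFM037+TNF, with no overlap (log2 change -1.56, SE 0.16, adjusted p = 5.33e-06).

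The remaining genes among the 12 lowest fell by 1.34 to 2.08 on the log2 scale. They were Cbr2, a carbonyl reductase, Fcrls, an Fc receptor-like scavenger receptor, Tmem37, a membrane protein, Id1, an inhibitor of basic helix-loop-helix factors, Rab3il1, an exchange factor for small GTPases, Mrc1, the mannose receptor CD206, Cd300lg, a CD300 family receptor, and Folr2, a folate receptor of resident macrophages. All 8 were lower in 4 of 4 animals, as the naming rule required. Id1 fell from 106 ± 9.18 to 37.6 ± 5.69 CPM and Mrc1 from 50.2 ± 26.4 to 19.2 ± 11.7 CPM. In bulk RNA, fewer cells of a type and less RNA per cell cannot be told apart, which holds for each gene described here.

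Genes of the TNF and NF-κB pathway rose in part. Tnf itself was at 58.9, 61.5, 48.2 and 41.2 CPM in animals 1 to 4 with PFM037 and at 192, 175, 138 and 71.8 CPM with PFM037+TNF (log2 change 1.40, SE 0.16, adjusted p = 1.72e-05). Tnfrsf1b, the receptor TNFR2, rose from 423 ± 233 to 842 ± 225 CPM (log2 change 1.13, SE 0.17, adjusted p = 1.75e-04), whereas Tnfrsf1a, the receptor TNFR1, went from 249 ± 35.8 to 219.5 ± 18.4 CPM and did not pass, with log2 change -0.17 ± 0.07 (adjusted p = 0.0777). Of 22 tested genes for TNF, its receptors and adaptors, 9 rose and none fell, with a median log2 change of 0.11 beside -0.01 over all genes. Besides Tnf and Tnfrsf1b these were Traf1, Traf3, Traf6, Birc2, Birc3, Map3k7 and Cflar. The Traf6 call was lost with any 1 animal left out. That of Map3k7 was lost without animal 2, 3 or 4, and that of Birc2 without animal 1 or animal 4. Traf1 was at 10.6, 7.28, 31.9 and 28.5 CPM and rose to 85.8, 65.6, 125 and 115 CPM. Birc3, the ubiquitin ligase cIAP2, changed by 1.56 ± 0.16 (adjusted p = 5.19e-06) on the log2 scale, and Traf3, a brake on the non-canonical pathway, by 0.68 ± 0.07 (adjusted p = 4.25e-06).

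The NF-κB subunits and kinases rose in 9 of 12 members and none fell, with a median log2 change of 0.34. Relb, a subunit of the non-canonical dimers, rose from 27.5 ± 6.47 to 79.1 ± 7.69 CPM, a log2 change of 1.56 ± 0.18 (adjusted p = 1.31e-05). Nfkb2, its p100 partner, rose by 1.31 ± 0.14 (adjusted p = 6.85e-06) on that scale, and Ikbke, an IκB kinase-related kinase, by 1.12 ± 0.08 (adjusted p = 2.43e-07). The feedback inhibitors rose in 10 of 11 members, with a median of 0.82. Tnfaip3, whose window is printed above, was at 87.1, 64.3, 94.9 and 92.6 CPM with PFM037 and at 443, 411, 495 and 303 CPM with PFM037+TNF (log2 change 2.28, SE 0.15, adjusted p = 7.07e-08). Nfkbia, which encodes IκBα, stood at 168, 159.9, 162 and 144 CPM and at 676, 575, 580.4 and 390.5 CPM (log2 change 1.78, SE 0.10, adjusted p = 6.80e-08). Neither gene's groups overlapped, and animal 4 had the smallest rise in both. Nfkbie, which encodes IκBε, rose 3.99-fold. Without the animal term 5 inhibitors and 3 subunits or kinases were still called.

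Chemokines that draw neutrophils and activated T cells rose. Of 6 CXC chemokines tested, 5 rose and none fell, with a median of 1.68, and Cxcl9, Cxcl11, Cxcl12, Cxcl13 and Cxcl14 did not pass the filter or had no count. Cxcl2, a ligand of CXCR2 on neutrophils, was at 111, 82.0, 132 and 104 CPM with PFM037 and at 425, 384, 381 and 325 CPM with PFM037+TNF (log2 change 1.85, SE 0.14, adjusted p = 2.43e-07). Cxcl10, a ligand of CXCR3 on T cells, rose 4.79-fold (log2 change 2.26, SE 0.24, adjusted p = 7.95e-06). The differences in log2 CPM within animals 1 to 4 were 3.32, 2.62, 1.99 and 1.62 for Cxcl10 and 2.01, 1.55, 1.99 and 2.01 for Cxcl1, a neutrophil chemokine. Among 9 CC chemokines 3 rose and 2 fell, with a median of 0.10. Ccl22, a CCR4 ligand of dendritic cells, rose from 2.94 ± 0.705 to 6.83 ± 2.86 CPM, and Ccl6, a macrophage chemokine, fell from 178 ± 45.8 to 121 ± 24.4 CPM. Ccl7, a monocyte chemokine, changed by -0.66 ± 0.19 (adjusted p = 0.0189), a call that was lost without animal 3.

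Interleukin genes moved in both directions. Of 14 IL-1 family and inflammasome genes 6 rose and none fell (median 0.29). Il1b, a secreted inflammatory cytokine, was at 51.1, 75.039, 454 and 552 CPM in animals 1 to 4 and rose to 292, 297, 1097 and 1364 CPM (log2 change 1.79, SE 0.21, adjusted p = 1.75e-05). Levels of animals 1 and 2 lay below those of animals 3 and 4 in both groups. Il1rn, the antagonist of the IL-1 receptor, rose from 25.4 ± 13.2 to 53.1 ± 16.0 CPM, and Il1a by 1.87 ± 0.27 (adjusted p = 1.15e-04) on the log2 scale. Of 10 genes of the IL-6, IL-10 and IL-12 families 4 rose and 2 fell. Il10, an anti-inflammatory cytokine, fell from 5.02 ± 1.81 to 2.44 ± 0.825 CPM (log2 change -1.003 ± 0.24, adjusted p = 0.00801). It was lower in 3 of 4 animals, at 7.46, 4.36, 5.08 and 3.18 CPM with PFM037 and 2.43, 1.38, 2.54 and 3.39 CPM with PFM037+TNF, and the groups overlapped. Its receptor chain Il10ra rose from 138 ± 82.3 to 263 ± 61.7 CPM. The Il10 call was lost without animal 1 or animal 2. Il6 rose 1.51-fold, with differences of 0.25, 0.48, 0.34 and 1.45 in animals 1 to 4, so animal 4 rose most, and the call was lost without it. Among 7 colony-stimulating factor and receptor genes 4 rose, and 2 did without animal 3. The call of Csf2rb, the shared receptor chain for GM-CSF, was lost in 5 fits that left out an animal or a library. Csf1r, the M-CSF receptor, rose from 1496 ± 518 to 1919 ± 482 CPM (log2 change 0.39, SE 0.07, adjusted p = 0.00109), and the ligand gene Csf1 did not pass, at -0.04 ± 0.12 (adjusted p = 0.849).

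Prostanoid genes moved in both directions. Ptgs2 (cyclooxygenase-2) rose 2.07-fold (log2 change 1.05, SE 0.17, adjusted p = 3.76e-04), and Pla2g4a, the phospholipase that frees arachidonic acid, rose, next to Ptges described above. Hpgd fell, as did Hpgds, a prostaglandin D synthase (log2 change -1.04, SE 0.14, adjusted p = 7.57e-05), and Ptgs1, the constitutive cyclooxygenase. The Pla2g4a call was lost without animal 2, 3 or 4, and the Ptgs1 call with any 1 animal left out. In all, 3 of 13 tested prostanoid and leukotriene genes rose and 3 fell, with a median of -0.03. Of 14 arginine and polyamine genes 4 rose. Ass1, which recycles citrulline to arginine, stood at 32.4, 34.0, 45.3 and 43.1 CPM with PFM037 and at 186, 174, 171 and 165 CPM with PFM037+TNF (log2 change 2.18, SE 0.15, adjusted p = 1.01e-07). Gch1, which starts synthesis of the nitric oxide synthase cofactor, rose from 29.8 ± 7.73 to 59.3 ± 4.67 CPM. Nos2 (inducible nitric oxide synthase) went from 0.961 ± 1.39 to 2.08 ± 2.39 CPM, with adjusted p = 0.0376, and its within-animal differences ran from no difference in animal 2 to 2.21 in animal 4.

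Genes of dendritic cell maturation and costimulation rose in 7 of 11 members (median 0.92). Ccr7, the receptor that guides cells to lymph nodes, was at 4.61, 2.59, 7.13 and 7.78 CPM with PFM037 and at 27.1, 15.5, 21.9 and 20.6 CPM with PFM037+TNF (log2 change 1.99, SE 0.22, adjusted p = 1.10e-05). Cd274, which encodes PD-L1, rose from 60.9 ± 33.5 to 181 ± 40.6 CPM, and Il4i1, an amino acid oxidase, rose 3.65-fold. The 7 tested markers of dendritic cells themselves summed to 44.9 to 57.2 CPM with PFM037 and to 44.9 to 52.2 CPM with PFM037+TNF, and of these Zbtb46 and Dpp4 rose and Cd209a fell. Neither rise was called with any 1 animal left out. Their part in the maturation genes was not tested.

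Surface genes for adhesion and sensing moved both ways. Of 19 leukocyte adhesion genes 9 rose and 5 fell. Icam1, the ligand of leukocyte β2 integrins, rose from 49.2 ± 7.54 to 133 ± 16.0 CPM, and Itga6, a laminin receptor chain, fell from 127 ± 29.2 to 84.2 ± 22.5 CPM. Of 23 chemoattractant and metabolite receptors 11 rose and 4 fell. Ccrl2, a receptor that presents chemerin, rose 4.53-fold (log2 change 2.18, SE 0.18, adjusted p = 8.77e-07), and the 4 that fell were C3ar1, Ccr1, Ccr2 and Cxcr4. Among 20 Toll-like receptor genes and adaptors Tlr2, Cd14, Irak2 and Irak3 rose and Tlr4 and Tlr9 fell. Without animal 4 neither fall was called, and without animal 2 that of Tlr4 was not. The falls were 10.0% of the list, near the 9.76% lower over all genes. Tlr2, a receptor for bacterial lipoproteins, was at 116, 126, 328 and 366 CPM and rose to 445, 488, 898 and 743 CPM (log2 change 1.62, SE 0.16, adjusted p = 5.33e-06). Of 6 Fc receptors the inhibitory Fcgr2b rose (0.69 ± 0.14, adjusted p = 0.00231, log2 scale) and the activating Fcgr3 fell (-0.60 ± 0.08, adjusted p = 1.10e-04). Scavenger receptors split evenly, with Marco, Msr1 and Olr1 higher and Scarb1, Mrc1 and Colec12 lower of 12 tested.

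Most genes of antioxidant defence rose. Of 27 antioxidant, NRF2 and iron genes tested 18 rose and Osgin1 fell, with a median of 0.51. Sod2, the mitochondrial superoxide dismutase, stood at 109.5, 92.2, 114 and 112 CPM with PFM037 and at 456, 439.9, 390.1 and 362 CPM with PFM037+TNF (log2 change 1.94, SE 0.13, adjusted p = 7.07e-08). Slc7a11, the cystine transporter that feeds glutathione synthesis, rose 3.48-fold (log2 change 1.80, SE 0.20, adjusted p = 1.29e-05), Nqo1, a quinone reductase, 2.17-fold and Gclm, a subunit of the enzyme that starts glutathione synthesis, 1.75-fold. Nfe2l2, which encodes NRF2 itself, rose from 130.3 ± 34.5 to 216 ± 37.2 CPM. Hmox1, the haem-degrading enzyme, did not pass, with log2 change -0.07 ± 0.12 (adjusted p = 0.727) and differences of -0.22, -0.46, 0.17 and 0.21 in animals 1 to 4. Without the animal term 3 of these 27 genes were called.

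**Figure D2:**
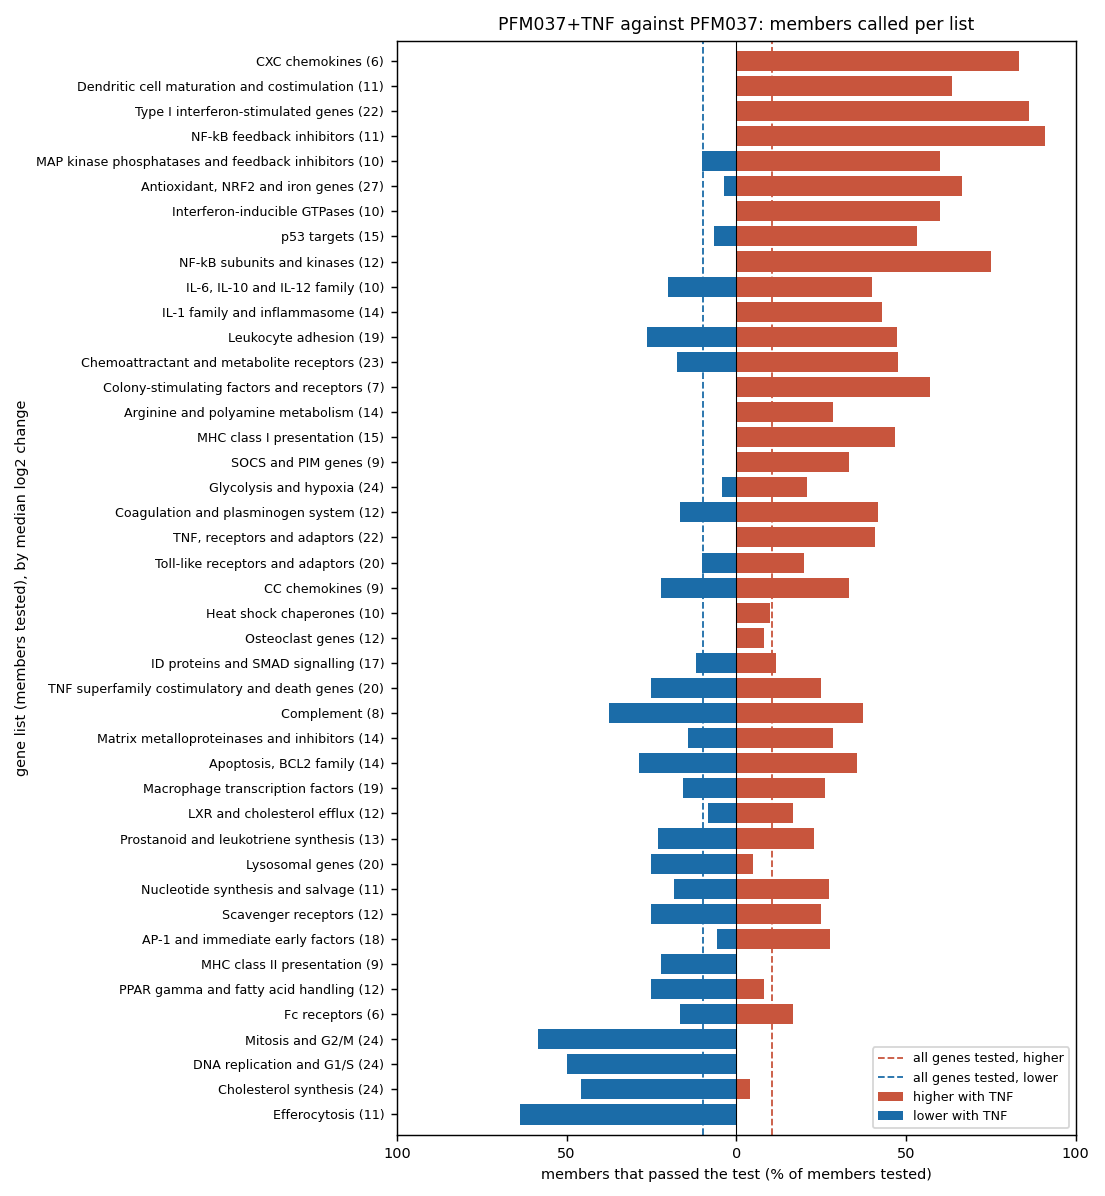
Share of the tested members of each gene list that rose (right) or fell (left) with PFM037+TNF against PFM037, in percent, with the number tested in brackets and the lists ordered by median log2 change. Dashed lines mark 10.6% higher and 9.76% lower, the shares over all genes tested. CXC chemokines stand at the top with 5 of 6 higher and efferocytosis genes at the bottom with 7 of 11 lower.

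Genes for the clearance of dying cells fell. Of 11 tested efferocytosis genes 7 fell and none rose, with a median of -0.60, and 6 or 7 of them fell in each fit that left out an animal or a library. They were the bridging proteins Gas6, Pros1 and Mfge8, the lipid receptor Trem2, and C1qa, C1qb and C1qc, which encode the complement protein C1q that coats debris. Trem2 was at 185, 176, 196 and 185 CPM in animals 1 to 4 with PFM037 and at 96.9, 90.2, 109 and 106 CPM with PFM037+TNF (log2 change -0.88, SE 0.09, adjusted p = 5.33e-06). C1qb stood at 109.5, 77.4, 267 and 275 CPM and fell to 53.7, 28.6, 130.5 and 130.4 CPM (log2 change -1.14, SE 0.21, adjusted p = 9.92e-04). The groups did not overlap for Trem2, and for C1qb the levels of animals 1 and 2 with PFM037 lay within those of the other group. Mertk, a receptor for Gas6, did not pass at -0.38 ± 0.16 (adjusted p = 0.0913). Of the 5 other complement genes tested 3 rose, C1ra, Cfb and C3, the central component, which rose 2.10-fold (log2 change 1.07, SE 0.09, adjusted p = 9.34e-07). The Cfb call was lost without animal 1, 2 or 4. The lists of complement and efferocytosis share the 3 C1q genes.

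Lipid genes moved unevenly. Of 24 cholesterol synthesis genes 11 fell and 1 rose, with a median of -0.28. Sqle, Cyp51 and Dhcr7, enzymes between squalene and cholesterol, changed by -0.50 ± 0.08 (adjusted p = 1.75e-04), -0.49 ± 0.08 (adjusted p = 4.34e-04) and -0.50 ± 0.08 (adjusted p = 3.32e-04) on the log2 scale. With animals 1 to 4 left out in turn, 7, 8, 10 and 7 members fell, and without the animal term 1 did. Of 12 LXR and efflux genes Nr1h3 and Abca1 rose and Apoe fell. Abca1, which exports cholesterol, rose from 24.5 ± 22.7 to 47.7 ± 39.2 CPM. Of 12 PPARγ and fatty acid genes Acsl1 rose, and Pparg, Plin2 and Angptl4 fell. The call of Plin2, a lipid droplet protein, was lost without animal 1, 2 or 3, and that of Angptl4 without animal 1, 2 or 4. The 1 LXR and efflux gene that fell and the 1 PPARγ gene that rose were each 8.33% of their lists. Over all genes 9.76% fell and 10.6% rose.

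Transcription factors of the macrophage lineage changed in 8 of 19 members, 5 higher and 3 lower. Cebpb, Irf1, Bhlhe40, Zeb2 and Mitf rose, and Cebpa and Maf were among those that fell. Cebpa, a factor of myeloid differentiation, was at 115, 136, 95.1 and 93.8 CPM in animals 1 to 4 with PFM037 and at 77.5, 83.5, 53.6 and 45.3 CPM with PFM037+TNF (log2 change -0.78, SE 0.09, adjusted p = 1.21e-05). Bhlhe40 rose from 58.8 ± 8.65 to 129 ± 36.1 CPM. Of 17 ID and SMAD genes Id1 and Id3 fell and Skil and Bmpr2 rose. That is 11.8% each way, near the 10.6% higher and 9.76% lower over all genes. Feedback inhibitors of MAP kinases rose in 6 of 10 members, among them the phosphatase genes Dusp4, Dusp5 and Dusp16, and Spry2 fell. Spry2 alone is 10.0% of the list, beside 9.76% lower over all genes, and its call was lost without animal 2 or animal 3. Of 18 AP-1 and immediate early genes 5 rose and Fosb fell, with Maff at 1.13 ± 0.11 (adjusted p = 5.19e-06) on the log2 scale. Socs3, a brake on cytokine receptors, Socs2 and Pim1 rose of 9 SOCS and PIM genes, the Socs2 call being lost without animal 2 or animal 4. Of 12 tested osteoclast genes Clcn7, a lysosomal chloride transporter, rose by 0.26 ± 0.07 (adjusted p = 0.0149), a call lost without animal 2 or animal 3, and the rest did not pass. That share, 8.33%, is near the 10.6% higher over all genes.

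Extracellular proteases and clotting genes included some of the larger changes. Of 14 metalloproteinase genes and inhibitors 4 rose and 2 fell. Mmp14 was at 51.0, 25.7, 310.1 and 284 CPM in animals 1 to 4 with PFM037 and at 459.6, 397, 712 and 663 CPM with PFM037+TNF (log2 change 2.33, SE 0.40, adjusted p = 5.94e-04). The low starting level in animals 1 and 2 set the range of the PFM037 group. Mmp13, a collagenase, fell from 42.2 ± 29.4 to 19.6 ± 10.6 CPM, and Adam17, the sheddase that frees TNF from the membrane, rose from 271 ± 68.3 to 428 ± 78.0 CPM. Of 12 coagulation and plasminogen genes 5 rose and 2 fell. Procr, the protein C receptor, rose from 12.7 ± 3.38 to 39.6 ± 11.1 CPM, whereas Thbd (thrombomodulin) fell from 29.2 ± 7.14 to 13.7 ± 6.14 CPM and Plau (urokinase) from 92.2 ± 9.17 to 49.5 ± 6.35 CPM.

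Survival, stress and division genes were also read. Of 14 BCL2 family genes 5 rose and 4 fell. Bcl2a1a, Bcl2a1b and Bcl2a1d, near-identical copies of an anti-apoptotic gene whose reads cannot be assigned with certainty, rose, as did Mcl1 and Pmaip1, and Bid, a pro-apoptotic member, fell from 72.8 ± 10.8 to 48.7 ± 2.46 CPM. Of 15 p53 targets 8 rose, among them Gadd45a (from 23.1 ± 4.16 to 47.7 ± 9.99 CPM) and Mdm2, the ligase that degrades p53, and Sesn1 fell. Of 24 DNA replication and G1/S genes 12 fell and none rose, with a median of -0.28, and of 24 mitosis and G2/M genes 14 fell and none rose, with a median of -0.27. Cdt1, which licenses replication origins, fell from 106 ± 28.5 to 67.2 ± 16.2 CPM, and Cenpa, the centromeric histone, from 83.3 ± 15.7 to 55.0 ± 10.4 CPM. The within-animal medians of the mitosis genes were -0.35, -0.52, -0.04 and -0.26 in animals 1 to 4, so animal 3 was near 0. Left-out animals moved the count of falling replication genes between 4 (without animal 2, and without animal 4) and 14 (without animal 3) and that of mitosis genes between 7 (without animal 4) and 15 (without animal 3). No gene of either list was called without the animal term. Mki67, a division marker, did not pass at -0.26 ± 0.11 (adjusted p = 0.124).

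Interferon genes rose, and unequally between animals. Of 22 type I interferon-stimulated genes 19 rose and none fell, with a median of 0.86. The median difference within an animal was 2.19, 1.38, 0.14 and 0.41 in animals 1 to 4. Their summed level in those animals was 392, 354, 3412 and 3152 CPM with PFM037 and 1268, 715, 3748 and 4300.4 CPM with PFM037+TNF. Animals 1 and 2 started at far lower levels and rose more on the log2 scale. Irf7, the transcription factor of the interferon loop, was at 29.2, 22.2, 628 and 645 CPM and rose to 161, 59.4, 777 and 922 CPM (log2 change 1.15, SE 0.23, adjusted p = 0.00236). The RNA sensors Ddx58 (RIG-I) and Ifih1 (MDA5) had the smallest adjusted p of the list, with log2 changes of 0.73 ± 0.11 (adjusted p = 1.20e-04) and 0.70 ± 0.10 (adjusted p = 1.44e-04). No member was called without the animal term. The fit that lacked animal 1 made 13 calls, and the fits that lacked animals 2, 3 and 4 in turn made 11, 21 and 15. Of 10 interferon-inducible GTPases 6 rose, among them Irgm1, Gbp2 and Gbp5, the call of Gbp2 being lost without animal 2 and that of Gbp5 without animal 4.

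Antigen presentation genes were read by class. Of 15 MHC class I genes 7 rose and none fell. Nlrc5, the class I transactivator, rose from 67.7 ± 43.0 to 98.6 ± 55.1 CPM, and Tapbp, a peptide-loading chaperone, from 277 ± 126 to 373 ± 123 CPM. H2-Q7, which has near-identical neighbours, rose 2.30-fold. Of 9 class II genes H2-DMa and H2-DMb1, which edit peptides on class II, fell, by 0.46 and 0.50 on the log2 scale. The other class II genes did not pass. The within-animal medians of the class II list were 0.29, 0.29, -0.44 and -0.52, above 0 in animals 1 and 2 and below 0 in animals 3 and 4. Cd74, the invariant chain, had differences of 0.49, 0.42, -0.44 and -0.44.

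Glycolysis and hypoxia genes rose in 5 of 24 members, and Pfkfb4 fell, a call lost without animal 2, 3 or 4. Hif1a, the hypoxia-inducible factor, stood at 169, 137, 172 and 189 CPM with PFM037 and at 336, 372, 408 and 477 CPM with PFM037+TNF (log2 change 1.25, SE 0.08, adjusted p = 7.07e-08). Slc2a1, the glucose transporter GLUT1, rose from 119.7 ± 48.7 to 183 ± 46.0 CPM, and Slc16a3, a lactate exporter, from 240.3 ± 163 to 313 ± 191 CPM. Of 11 nucleotide genes Upp1, uridine phosphorylase, rose 4.69-fold (log2 change 2.23, SE 0.28, adjusted p = 4.14e-05), Dck and Nampt rose, and Umps and Ada fell. The Ada call was lost without animal 1 or animal 2, and that of Umps without animal 4. Lysosomal genes fell in 5 of 20 members, Ctsl among them at -0.55 ± 0.09 (adjusted p = 3.13e-04), and Ctsz rose. Hsp90aa1 was the 1 of 10 heat shock genes called, at 0.21 ± 0.07 (adjusted p = 0.0401), and that call was lost without animal 2, 3 or 4. That share, 10.0%, is near the 10.6% higher over all genes. The superfamily genes for costimulation and death split into 5 higher, such as Fas (1.80 ± 0.19, adjusted p = 6.65e-06), and 5 lower, such as Tnfsf14 (-0.62 ± 0.13, adjusted p = 0.00394), of 20 tested.

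The libraries were not alike beyond the treatment. In the 8 libraries the first principal component held 51.1% of the variance, with animals 1 and 2 on one side and animals 3 and 4 on the other. The second held 20.6%, with the TNF-treated libraries on one side. No label names a batch for these pairs of animals, and both groups hold all 4 animals. Genes that rose had within-animal medians of 0.45, 0.62, 0.36 and 0.41, and genes that fell had -0.32, -0.52, -0.34 and -0.38. The groups did not overlap for 1000 of the 2828 called genes and for 1272 (9.18%) of all genes tested. Called genes moved the same way in 4 of 4 animals in 2635 cases. The medians and counts of called genes are a description only, because these genes were called on the same values. The number called was 1596 without animal 2 and 1434 without animal 4, the animals whose removal lowered it most, and 1695 without the PFM037+TNF library and 1813 without the PFM037 library of animal 2. Of the 143 named genes that were called, 50 were also called without the animal term and 129 in every fit that left out an animal or a library.

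Some lists rested more than others on single animals. Without animal 4 the called members fell from 6 to 2 higher for the interferon-inducible GTPases, from 5 to 2 higher for coagulation, from 5 to 3 higher for glycolysis, from 4 to 2 higher for arginine metabolism, from 5 to 1 lower for lysosomal genes, from 4 to 1 lower for the BCL2 family and from 5 to 1 lower for the costimulation and death genes. Without animal 2 they fell from 8 to 4 higher for p53 targets and from 5 to 3 higher for coagulation. CC chemokines had 1 member higher without animal 1, animal 2 or animal 4. The PPARγ and fatty acid genes had 1 member lower without animal 1 or animal 2. The NF-κB feedback inhibitors had 9 or 10 and the CXC chemokines 5 called members in every fit that left out an animal or a library. Over all lists, 121 of 320 called members were not called in at least 1 such fit, and 8 were called in none that left out an animal: Traf6, Ccl3, Ptgs1, G6pdx, Colec12, Fdft1, Zbtb46 and Dpp4.

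Markers of the labelled cells were present. All 10 monocyte and macrophage markers passed the filter, and their summed level ran from 23012 to 33539 CPM with PFM037 and from 34639 to 41386 CPM with PFM037+TNF, higher with TNF in each animal. A sum is weighted towards the most abundant members. The log2 change was above 0 in 5 of the 10 markers and below 0 in 5, with a median of 0.10. The within-animal medians were 0.40, 0.23, 0.004 and -0.007 in animals 1 to 4. Of the 10 markers Csf1r, Adgre1, Itgam, Lyz2 and Cd14 rose, and 3 fell, Mrc1 and C1qa among them. Neutrophil markers summed to 16789, 26288, 13878 and 12478 CPM in animals 1 to 4 with PFM037 and to 16992, 24633, 12007 and 12704 CPM with PFM037+TNF. Of 12 of them Elane, Prtn3 and Retnlg fell and the rest did not pass. None of the 12 was called lower without animal 2 or without the animal term, and 1 was without animal 4. Eosinophil markers summed to 282, 255, 61.5 and 57.0 CPM and then to 419, 298, 67.2 and 55.3 CPM, with Ear6, 1 of 9, higher, a call lost without animal 1, 2 or 4. That share, 11.1%, is near the 10.6% higher over all genes. Basophil and mast cell markers (7 tested) and lymphocyte markers (8 tested) had no member called in either direction. Animals 1 and 2 were thus higher than animals 3 and 4 in neutrophil, eosinophil and basophil or mast cell markers in both groups. Markers that did not pass the filter were Mcpt4, Tpsb2 and Cma1 of mast cells, Ncr1 and Klrb1c of natural killer cells, Xcr1 of dendritic cells, and Col1a2, Col3a1, Pdgfra, Lepr and Dcn of stroma. Erythroid and megakaryocyte markers fell in 1 of 9 members (Pf4), or 11.1% beside 9.76% lower over all genes. Of 4 tested stromal and endothelial markers Kdr rose, a call lost without animal 3 or animal 4. The part of these cells in the changes above was not tested.

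The same TNF effect was read without PFM037, in the other 8 libraries of the same animals, to ask whether PFM037 altered it. There 1329 genes (9.59%) rose and 1363 (9.84%) fell. Genes that rose in both numbered 990, which is 67.1% of those that rose with PFM037 and 74.5% of those that rose without. Genes that fell in both numbered 841, 62.2% and 61.7% of those lists. The 2 sets of log2 changes correlated across genes at r = 0.766, or 0.919 over the 9817 genes with a mean of at least 5 CPM. This is a description, since genes are not independent and the animals are shared. The test of the difference between both TNF effects, the interaction term, called 0 of 13856 genes (0.0%), with 383 genes at an unadjusted p below 0.05, and DESeq2 and limma-voom called 0 as well. The same edgeR test without the filter on low counts called 34 genes, all of which had passed the filter.

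**Figure D3:**
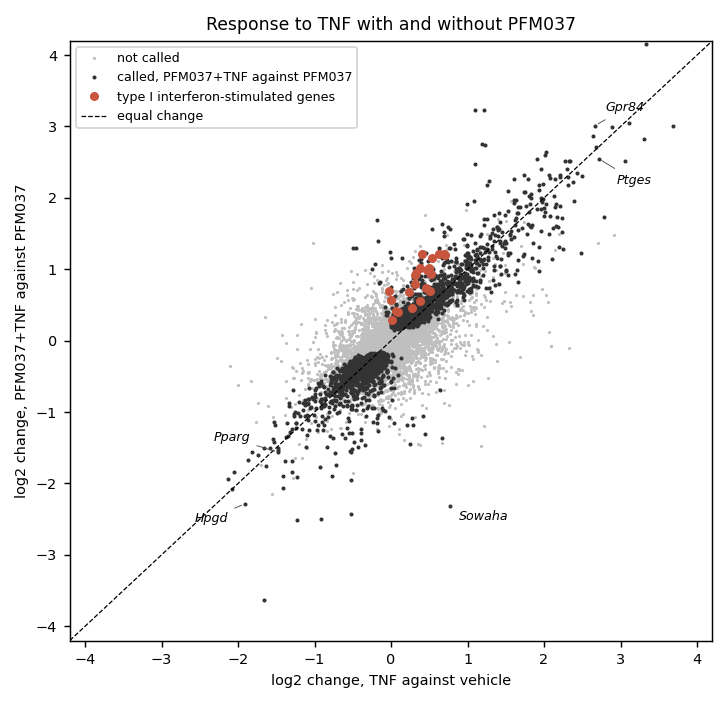
Log2 change with TNF in the absence (horizontal) and presence (vertical) of PFM037, 1 point per gene, for the 13856 genes tested, with axes ending at 4.2 and 3 genes outside them. Dark points are genes called in the presence of PFM037, red points the 22 type I interferon-stimulated genes and the dashed line equal change. Most dark points lie near the line, all red points lie above it, and Sowaha stands apart below it.

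Several lists differed in their counts with and without PFM037, and with the filter no member's difference was called. Type I interferon-stimulated genes rose in 19 of 22 with PFM037 and in 4 of 22 without, with medians of 0.86 and 0.38. Their within-animal medians without PFM037 were 0.78, 0.20, 0.17 and 0.32 in animals 1 to 4, so both conditions lay furthest apart in animals 1 and 2. The interaction estimate was above 0 in 22 of 22, with a median of 0.50, and had an unadjusted p below 0.05 in 2. Of the 34 genes called without the filter 9 belong to this list. Glycolysis and hypoxia genes rose in 5 of 24 with PFM037 (median 0.15) and in 14 of 24 without (median 0.40), and within-animal medians were 0.17, -0.05, 0.03 and 0.31 with PFM037 and 0.22, 0.08, 0.49 and 0.69 without. The interaction estimate of these 24 was above 0 in 2, with a median of -0.23 and an unadjusted p below 0.05 in 8. Cholesterol synthesis genes fell in 11 of 24 with PFM037 and in 18 of 24 without. Their interaction estimate was above 0 in 24, with a median of 0.15 and an unadjusted p below 0.05 in 2. The NF-κB feedback inhibitors rose in 10 of 11 with PFM037 and in 9 of 11 without, with medians of 0.82 and 0.77. Here the interaction estimate was above 0 in 10 of 11, with a median of 0.13, and at an unadjusted p below 0.05 in 0. Other lists were one-sided too, with 15 of 15 MHC class I, 22 of 24 mitosis and 1 of 27 antioxidant, NRF2 and iron genes above 0. The CXC chemokines were even, at 3 of 6. Over all genes tested 2.76% had an unadjusted interaction p below 0.05. For the counts above 0 no share over all genes is given, so they are a description.

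**Figure D4:**
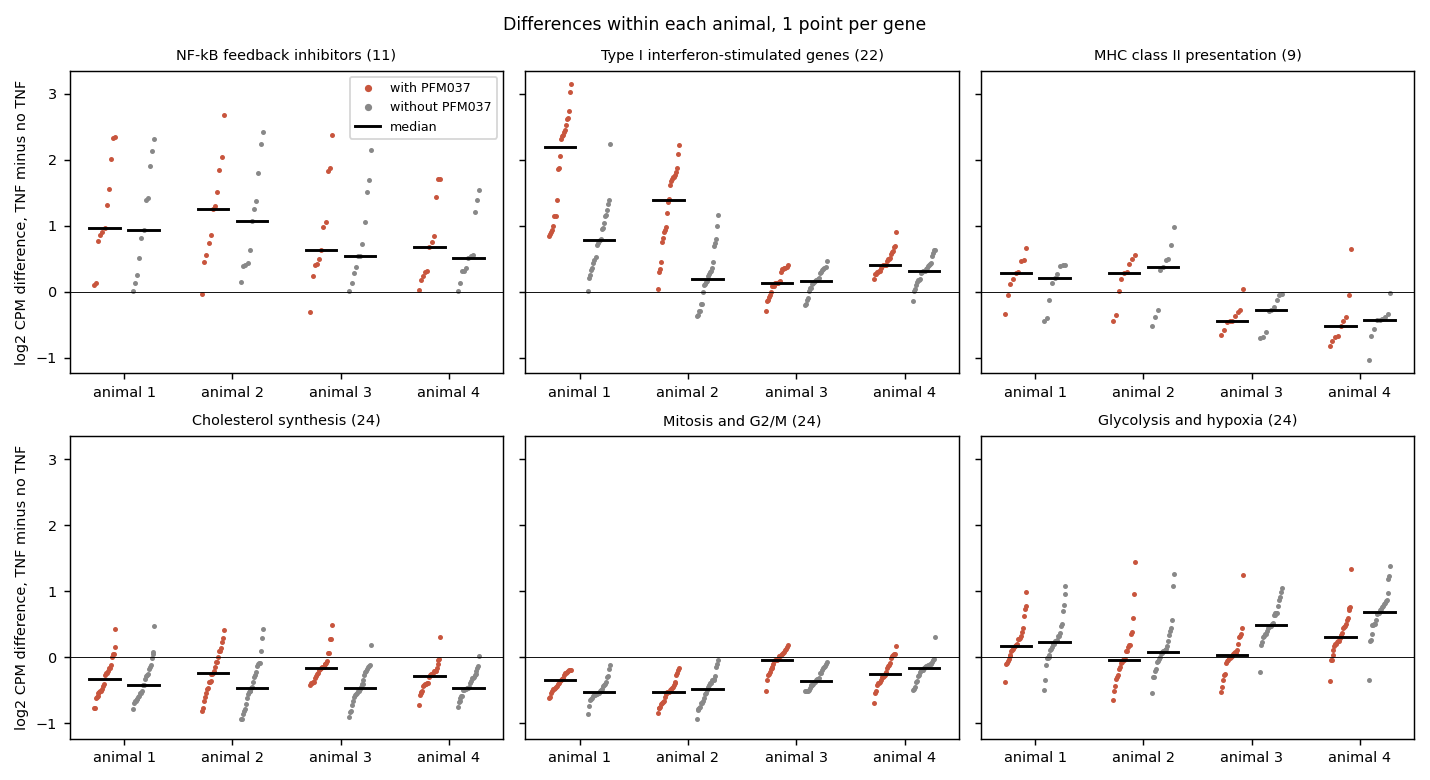
Difference in log2 CPM between the TNF library and its partner without TNF in each animal, with PFM037 (red) and without it (grey), 1 point per gene of 6 lists and a bar at the median. Interferon-stimulated genes with PFM037 have medians of 2.19 and 1.38 in animals 1 and 2 and of 0.14 and 0.41 in animals 3 and 4. NF-κB feedback inhibitors have medians above 0 in each animal in both conditions, and class II genes have medians above 0 in animals 1 and 2 and below 0 in animals 3 and 4.

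Genes with the smallest unadjusted interaction p were taken by rule among the genes called for PFM037+TNF against PFM037, 3 above and 3 below 0, and none passed. Sowaha (chromosome 11, 53476573 to 53480274, - strand), an ankyrin repeat gene, was at 0.384, 1.38, 0.357 and 0.370 CPM in animals 1 to 4 with PFM037 and at 0.0658, 0.106, 0.186 and 0.133 CPM with PFM037+TNF. The groups did not overlap, yet these are low counts, and animal 2 was high in the PFM037 group. With vehicle it was at 0.242, 0.651, 0.562 and 0.291 CPM and with TNF at 0.635, 1.28, 0.749 and 0.224 CPM, and its interaction estimate was -3.08 ± 0.62 (SE, unadjusted p = 1.15e-04, adjusted p = 0.9999). Nenf (chromosome 1, 191306789 to 191318194, - strand), which encodes the secreted protein neudesin, stood at 10.6, 9.71, 11.1 and 9.90 CPM with PFM037 and at 8.09, 5.21, 7.19 and 5.86 CPM with PFM037+TNF, with no overlap (log2 change -0.66, SE 0.12, adjusted p = 7.59e-04). Its TNF change without PFM037 was 0.04 ± 0.11 on the log2 scale. Gm2221 (chromosome 8, 43199968 to 43200385, + strand), annotated as a processed pseudogene whose reads may belong to its parent, was the 1 gene called in opposite directions, at -0.70 ± 0.21 (adjusted p = 0.0248) with PFM037 and 0.64 ± 0.19 (adjusted p = 0.0297) without, and its call with PFM037 was lost without animal 1, 2 or 3. Ddx60, an interferon-stimulated helicase, had TNF changes of 1.08 with and 0.39 without PFM037, Adap2 of 0.40 and -0.06, and the antisense gene 1700040L08Rik of 0.80 and -0.16.

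**Figure D5:**
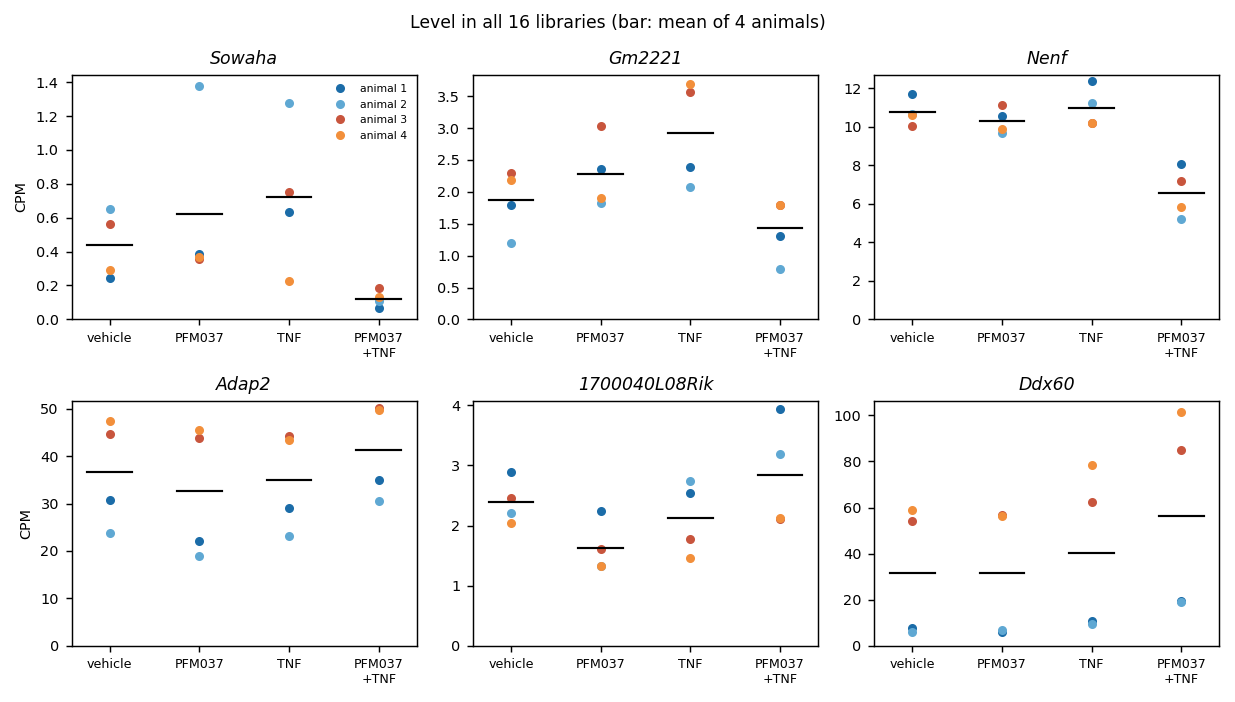
Level in CPM, on axes from 0, of the 6 genes named for the interaction in all 16 libraries, with colours for animals and a bar at the mean of 4 animals. Nenf is lower in the 4 PFM037+TNF libraries than in the other 12. Sowaha stays below 1.4 CPM throughout, and Adap2 and Ddx60 are split by animal more than by treatment.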

How the data were processed

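Per the labels' protocols, 500 ng of total RNA per library went into a stranded poly(A) TruSeq kit and were read as single 75-base reads. The submitters' processing notes name STAR 2.5.3a, featureCounts, limma and mm10 (GRCm38). Neither annotation release nor strand setting is stated there, so genes that overlap may hold each other's reads. The deposited values are the authors' whole-number counts per gene, not normalized. The table has 50508 rows, 30556 with a count.

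In R 4.3.3, edgeR 4.0.16 fitted all 16 libraries with group means and an animal term, TMM scaling and filterByExpr (minimum count 10, minimum total 15). P-values were two-sided and Benjamini-Hochberg adjusted over 13856 genes. SE is the log2 change over the root of F. Differences within animals are of log2 CPM with a prior count of 2. The labels pair libraries by animal. Residuals of the 2 libraries of an animal correlated at 0.551 to 0.633, and those of libraries of different animals at -0.574 to 0.56. The fit was tested on simulated data.

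Genes were named by rule. With a mean of at least 5 CPM, the same sign in all 4 animals and a called change, the rule took 12 genes at either end of the fold changes. The 3 smallest adjusted p of each list with a mean of at least 1 CPM, the interaction extremes and Hmox1, Nfkbia, Tnf, Tnfrsf1a, Tnfrsf1b, Csf1 and Csf1r were added. Other members named beside a list's count, such as Cxcl10, Slc7a11, Irf7, Il6 and Cd74, were chosen after their values were seen. The comparison, members and lists were chosen with earlier results of these data known. Alternatives were the fit without the animal term, only the 8 libraries, other scalings and filters, DESeq2 1.42.0, limma-voom 3.58.1, and each animal or library left out. Of the 26 rows with a date for a name, 19 were tested unnamed. A few genes that the rule names are not reported here.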

Additional observations from a re-analysis of the deposited data

Results flagged for a closer look

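In 146 named genes, 438 sets of 4 values were examined, the PFM037 levels, the PFM037+TNF levels and the differences within animals. In 18 of them 1 animal lay far from the other 3 by Dixon's gap criterion, which chance alone meets in about 1 set of 20. The 18 sets are no more than that rate would give, so what follows is a description.

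Animal 2 stood apart in 6 of the within-animal differences. These were Hpgd, where it fell most (-3.14), C1qb, where it also fell most (-1.43), Bid (-0.79, the largest fall), Cxcl1 (1.55, the smallest rise), Msr1 (0.58, the largest rise) and Adam17 (0.95, the largest rise). Its level of Sowaha with PFM037, 1.38 CPM, lay above the 0.357 to 0.384 CPM of the other animals.

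Animal 1 stood apart in Dusp4, with the smallest rise (0.48) and the highest PFM037 level, at 61.8 CPM beside 27.1 to 31.9 CPM. It had the highest level of Ctsl with PFM037 (1675 CPM) and with PFM037+TNF (949 CPM), the highest Ccl6 with PFM037 (246 CPM), the lowest Ikbke with PFM037 (76.8 CPM) and the highest Il4i1 with PFM037+TNF (41.2 CPM beside 14.9 to 17.9 CPM). Its Tnfrsf1a difference, 0.0404, lay above the -0.25 to -0.24 of the others.

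Animal 3 stood apart in Fcrls, with the largest fall (-2.65), and in Lif, a cytokine of the IL-6 family, with the largest rise (2.71 beside 1.11 to 1.36). Animal 4 stood apart in Cd300lg, with the largest fall (-1.91).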

How the results depend on the processing

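The animal term mattered most: without the replicate block, 312 genes were called in place of 2828, 213 higher and 99 lower, and all 312 were among the 2828. Leaving out an animal or a library gave 1434 to 3228 calls, 848 to 1699 higher and 586 to 1529 lower. Fitting only the 8 libraries gave 857 genes lower in place of 1353. Library size alone gave 2275 lower and 1057 higher, so 31.7% of calls were higher in place of 52.2%. In the other settings the counts of all, higher and lower calls stayed within 1.5 times. Changes of at least 2-fold, 284 higher and 101 lower, numbered 178 and 38 with the 5 CPM filter, 112 and 18 without the replicate block, and 201 to 310 and 77 to 132 with an animal or a library left out. No gene called in both was called with the opposite sign in any of these fits.

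The interaction stayed at 0 calls except without the filter, at 34, of which 24 were above 0. There the prior degrees of freedom were infinite, in place of 7.68, so that each gene took the spread of the trend, and the SE of Oasl2 was 0.118 in place of 0.397 at log2 estimates of 0.82 and 0.81. For the interaction, all 34 had unadjusted p of 1.15e-04 to 0.634 with the filter. Depth limits genes near 1 CPM, such as Sowaha and Nos2.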

Other observations

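Further genes that the interaction test called without the filter on low counts are given as values. The interaction estimate with the filter was 0.73 ± 0.35 (SE) for Fcgr1, the high-affinity IgG receptor, -0.83 ± 0.36 (SE) for Egln3, a prolyl hydroxylase of the hypoxia response, 0.63 ± 0.27 (SE) for Slfn4 and 0.61 ± 0.26 (SE) for Slfn5, Schlafen genes, and 0.47 ± 0.18 (SE) for Mmp9, a gelatinase. None of these passed with the filter, and they were chosen after their values were seen.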
